A study of Mus musculus with 6 samples.

Results

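Respiratory complex I was read on these arrays by 79 probe sets that carry a single gene symbol starting with Nduf in the authors' deposited table, out of 45101 probe sets in all. They stand for 39 of the 20678 genes named in that table, and every probe set that meets this rule was kept, whatever its values. The genes fall into 7 core subunits (17 probe sets), 26 accessory subunits (55 probe sets), 4 assembly factors (5 probe sets) and a pair with Nduf names that do not belong to the complex, Ndufa4 and Ndufa4l2 (2 probe sets). A further 11 probe sets list an Nduf symbol together with other genes and were left out. All 39 symbols name genes of the nucleus, and the core subunits that mitochondria encode themselves lie outside this rule.

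Whole marrow from the bones of mice with inducible c-Jun was compared between 3 control arrays, from mice without doxycycline (day 0), and 3 induced arrays, from mice that drank it at 1 mg/ml for 24 h (day 1), all at 8 weeks of age. The transcription factor c-Jun forms AP-1 with its partner proteins, and both groups carry the inducible allele. The promoter and cell type in which that allele is active, and the strain, are not given in the sources used here, and each array held RNA pooled from 3 mice. The effect of the antibiotic alone was not analysed here, so doxycycline, the allele's induction and the day differ between the groups together and cannot be told apart. The comparison asks which complex I genes differ in the marrow within a day of induction.

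Complex I, NADH:ubiquinone oxidoreductase, takes electrons from NADH and passes them along a flavin and a chain of iron-sulfur clusters to ubiquinone, and pumps protons out of the mitochondrial matrix. Its core subunits carry out this chemistry, its accessory subunits surround and stabilise them, and its assembly factors help to build the complex without staying in it. In marrow, red cell precursors shed their mitochondria late in maturation, and neutrophils are known to rely largely on glycolysis.

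The promoters of the 4 called genes with the smallest p-values below that have an entry in the RefSeq promoter table (GRCm38.p6) are shown because their genes were called higher. Whether these genes are regulated together was not tested. Each runs 5′ to 3′ from 250 bases before to 50 bases after the gene's start, on the gene's strand, and capitals mark a match on either strand to 1 of the motifs searched.
Ndufs4, chr13:114388045-114388344, minus strand: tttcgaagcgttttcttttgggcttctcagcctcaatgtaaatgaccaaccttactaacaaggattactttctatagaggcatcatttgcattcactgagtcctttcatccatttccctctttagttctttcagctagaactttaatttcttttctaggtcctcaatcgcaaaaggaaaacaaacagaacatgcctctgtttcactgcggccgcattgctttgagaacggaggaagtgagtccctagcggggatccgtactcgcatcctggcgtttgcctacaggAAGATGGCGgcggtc
Ndufa6, chr15:82354242-82354541, minus strand: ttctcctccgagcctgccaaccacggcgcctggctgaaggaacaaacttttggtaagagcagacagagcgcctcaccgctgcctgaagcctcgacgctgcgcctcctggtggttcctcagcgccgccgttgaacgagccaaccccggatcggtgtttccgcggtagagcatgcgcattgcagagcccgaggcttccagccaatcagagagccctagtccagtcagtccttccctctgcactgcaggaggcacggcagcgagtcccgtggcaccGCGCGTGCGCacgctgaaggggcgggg
Ndufs3, chr2:90904672-90904971, minus strand: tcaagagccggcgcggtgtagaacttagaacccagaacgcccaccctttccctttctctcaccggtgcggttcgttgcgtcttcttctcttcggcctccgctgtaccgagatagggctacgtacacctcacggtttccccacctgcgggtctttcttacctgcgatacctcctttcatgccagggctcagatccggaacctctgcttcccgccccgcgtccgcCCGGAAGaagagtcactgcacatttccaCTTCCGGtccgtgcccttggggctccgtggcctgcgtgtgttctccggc
Ndufs8, chr19:3912725-3913024, minus strand: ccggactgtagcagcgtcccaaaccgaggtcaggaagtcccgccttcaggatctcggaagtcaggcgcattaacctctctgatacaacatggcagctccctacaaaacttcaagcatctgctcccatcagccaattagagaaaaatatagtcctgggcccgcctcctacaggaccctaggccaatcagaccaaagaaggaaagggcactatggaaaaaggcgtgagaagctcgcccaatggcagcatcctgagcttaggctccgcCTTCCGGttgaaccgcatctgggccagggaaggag
The motifs were TGANTCA for AP-1, CCGGAAG for the ETS factors, among them GABP, and AANATGGCG for YY1, where N is any base, and the NRF1 motif with 1 free base in its middle. NRF1, GABP and YY1 are known as activators of nuclear genes for mitochondrial proteins. The match in Ndufs4 is to the YY1 motif, that in Ndufa6 to NRF1, and the pair in Ndufs3 and the single one in Ndufs8 are to the ETS motif. Over the 34 of 39 genes with a promoter in the table (the first listed where there are several), the AP-1 motif was found in 3, Ndufa13, Ndufa5 and Ndufa9, a share of 8.82% against 7.93% of the promoters of all 27025 genes there. The NRF1, ETS and YY1 motifs were each found in 5 of 34 (14.7%), against 4.78%, 9.12% and 2.51% of all promoters. Among the 11 genes called higher below, 1 promoter held the AP-1 motif, 1 NRF1, 3 ETS and 1 YY1. Matches to different motifs overlapped in 0 of the 34 promoters. Members' promoters had a median of 59.5% G and C against 52.7% for all. The part of this difference in the shares above was not tested, and a match is not evidence of binding.

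The arrays gave signals in arbitrary units, with most of them near background. The highest signal of 27 control probe sets for bacterial transcripts, 2.0, was taken as background, a limit chosen after the values were known, and 76.9% of all signals were at or under it. Of the 79 Nduf probe sets, 13 were at or under it on all 6 arrays and 29 had a mean signal over 10. The summed signal of an array was 251862 to 277679 in controls and 287143 to 340969 in induced arrays, while 18 probe sets for transcripts added at hybridisation had mean signals of 3393 ± 58.8 and 3382 ± 92.3 (SD, n = 3 each). The 5′ end of Gapdh was read at 16.5% ± 5.50 of its 3′ signal in controls and at 27.5% ± 1.58 in induced arrays (two-sided exact permutation test, p = 0.1, the lowest value possible with 3 arrays a group), and its part in the results below was not tested. Control 2 had 346 signals of 0, against 4653 to 7818 on the other arrays.

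Markers of some of the marrow's cell types moved with the groups, while those of T cells overlapped. Over all genes tested, 5.53% were called higher and 1.99% lower. The summed signal of the erythroid markers with a probe set (9 of 10) was 1128 to 1315 in controls and 260.5 to 333.7 in induced arrays, with 7 of 8 tested members lower and Hba-a1 at background. Eosinophil markers (4 of 5 with a probe set) summed to 22.2 to 31.8 and 219.4 to 268.8 with Il5ra at background, macrophage markers (7 of 7) to 32.6 to 39.1 and 75.0 to 97.6, and B cell markers (7 of 7) to 79.0 to 91.9 and 125.8 to 139.7. Called higher were 3 of 3 eosinophil, 4 of 7 macrophage and 3 of 7 B cell markers tested, with 0 lower. Neutrophil markers (9 of 10) summed to 8600 to 9859 and 10027 to 11715, with 2 higher and 4 lower. T cell markers (4 of 4) summed to 6.2 to 11.4 and 9.3 to 10.6, with Cd3g at background. Muscle markers (6 of 6) summed to 1.3 to 9.9 and 1.0 to 3.1, with Ckm, Tnnt3 and Acta1 at background, and all 4 markers of brown fat and liver, tissues rich in mitochondria, were at background. In whole marrow, more cells of a type and more RNA of a gene per cell cannot be told apart, and the part of these shifts in the values of complex I was not tested.

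Part of the complex I genes were higher in induced arrays, and as deposited none was lower. At an adjusted p under 0.05 (limma on log2(signal + 16), each gene by its brightest probe set, adjusted over 16239 genes), 11 of the 38 genes tested rose and 0 fell, and without adjustment 22 were higher and 0 lower at p under 0.05 (11.5% and 5.53% of all genes tested). The 39th gene, Ndufc2, was at background in both groups and did not pass the filter on dim probe sets. The 11 are a share of 28.9%, where 5.53% of all genes tested were called higher and 1.99% lower. Complex I genes are brighter than most, however, with 23 of 38 over a mean signal of 10 against 1913 of all 16239, and brighter genes were called more often. Among genes with a mean signal over 10, 8 of 23 complex I genes were called higher (34.8%), close to the 31.8% of all 1913 such genes, and 0 of 23 against 9.93% were called lower. Without adjustment 16 of the 23 were higher and 0 lower, against 47.3% and 16.6% of genes that bright. Among genes with a mean signal over 10, the share of complex I genes called higher at the adjusted threshold was thus near that of all such genes.

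Log2 changes of complex I genes with a mean signal over 10 were, by contrast, centred above those of all genes over that cut. The difference was not tested. That cut sets only a lower limit, and the genes were not matched for brightness above it. For the 38 complex I genes the median log2 change was 0.21 on the log2(signal + 16) scale, against -0.0014 over all genes tested. For the 23 with a mean signal over 10 it was 0.34, against 0.20 over all genes of that brightness, and the median ratio of mean signals was 1.53 against 1.28. All 3 induced arrays were above all 3 controls in 17 of the 38 (44.7%, against 12.4% of all genes tested), and in 12 of the 23 brighter ones (52.2%, against 41.3% of genes that bright). A log2 change above 0 was found in 32 of the 38 (84.2%, against 49.2% of all genes) and in 20 of the 23 (87.0%, against 68.1%). The groups were apart in the opposite direction in 0 of 38, against 7.41% of all genes and 13.8% of those over 10.

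**Figure D1:**
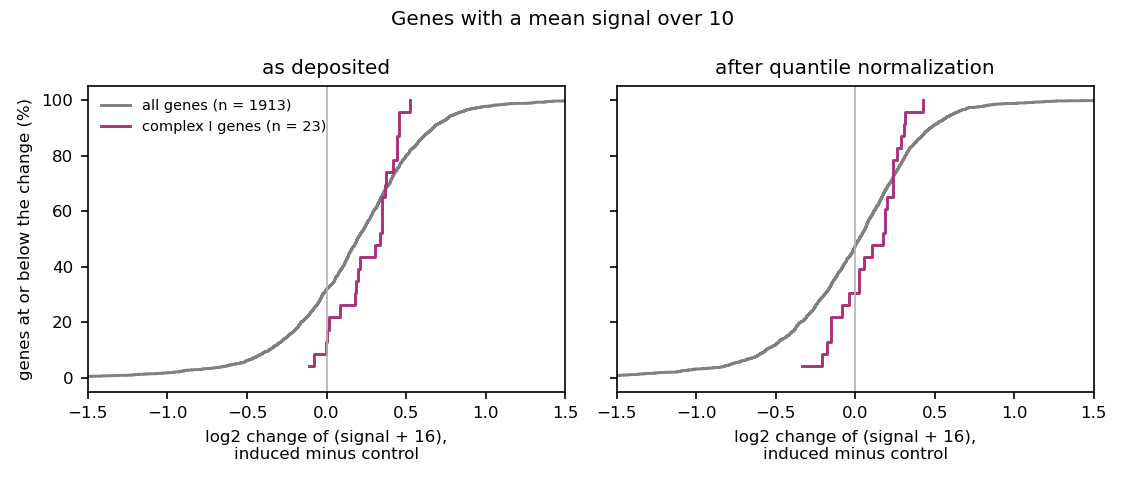
Share of genes (vertical axis, percent) at or below each log2 change of (signal + 16), induced minus control (horizontal axis, cropped at both ends), for genes with a mean signal over 10, as deposited (left) and after quantile normalization (right). The 23 complex I genes have a median of 0.34 as deposited and 0.18 after quantile normalization, and the 1913 genes 0.20 and 0.027, while the upper tail of all genes runs past that of complex I.

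These calls depended on how the arrays were set level with each other. The median log2 change of the 2868 probe sets brighter than 10 was 0.24 as deposited, 0.16 with every array scaled to 1 trimmed mean, 0.07 when scaled to 1 median and 0.06 after quantile normalization, and the changes given here are as deposited unless a scaling is named. After quantile normalization 4 of the 38 genes were called higher, Ndufs4, Ndufb2, Ndufb3 and Ndufa13, and 0 lower (limma, 10.5%, against 4.0% of all genes tested higher and 4.0% lower), and the median log2 change was 0.12. Of the 23 brighter ones 2 were then called (8.70%, against 21.2% of genes that bright higher and 21.5% lower). With every array scaled to 1 median 5 were called higher and 0 lower (3.59% and 4.05% of all genes), and with 1 trimmed mean 7 and 0 (4.42% and 2.79%). At a pseudocount of 1 the count was 0 (limma, 7 higher and 0 lower at an unadjusted p under 0.05, against 7.44% and 5.38% of all genes), where 0.548% of all genes were called higher and 0.431% lower.

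The core subunits gave 3 rises and 0 falls among 7 genes (42.9%), Ndufs3, Ndufs8 and Ndufv2. At an unadjusted p under 0.05, 4 genes were higher and 0 lower. Of all genes tested, 5.53% were called higher and 1.99% lower, and without adjustment 11.5% and 5.53%. Among all genes with a mean signal over 10, 31.8% were called higher, and 47.3% were higher without adjustment. Ndufs3, which lies in the arm that reaches into the matrix, had signals of 21.1, 19.9 and 15.2 in the control arrays and 27.5, 29.9 and 37.9 in the induced arrays, in the order of their replicate numbers here and below. The groups did not overlap, at 1.70-fold, with a log2 change of 0.46 and a standard error of 0.09 (limma, adjusted p = 0.0147). Ndufs8, whose iron-sulfur clusters lead to the last one before ubiquinone, had 10.7, 7.3 and 8.8 in controls and 19.2, 13.8 and 15.7 in induced arrays by its brightest probe set. It rose 1.82-fold (log2 change 0.37 ± 0.07 SE, adjusted p = 0.0152). Ndufv2, an iron-sulfur subunit of the tip that oxidises NADH, had 8.9, 11.3 and 10.3 in controls and 21.8, 15.8 and 14.7 in induced arrays, with no overlap, and rose 1.71-fold (log2 change 0.35 ± 0.08 SE, adjusted p = 0.0280).

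All of these core calls were lost after quantile normalization (adjusted p = 0.203, 0.109 and 0.0522 for Ndufs3, Ndufs8 and Ndufv2) and when arrays were scaled to 1 median. Ndufs3 lost its call without control 2 or control 3, Ndufs8 without control 2, control 3 or induced 3, and Ndufv2 without any 1 control or induced 1, with adjusted p of up to 0.0742, 0.0863 and 0.104.

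No other core subunit passed the test. Ndufv1, which binds NADH and the flavin, had 6.4, 12 and 8.7 in controls and 13.7, 12 and 11.1 in induced arrays (adjusted p = 0.293), and the groups overlapped, with control 2 above induced 3. Ndufs1, the large iron-sulfur subunit of the NADH-oxidising tip, had 4.5, 8.8 and 6.2 against 9.3, 8.5 and 8.4 (adjusted p = 0.362), and control 2 lay within the induced range.

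Ndufs7, which holds the last iron-sulfur cluster before ubiquinone, was level. Its brighter probe set gave 21.9, 20.5 and 19.4 in controls and 21.9, 19.6 and 21.6 in induced arrays, and the groups overlapped throughout. The log2 change of 0.02 ± 0.05 SE (adjusted p = 0.927) became -0.15 after quantile normalization (adjusted p = 0.259). All 7 core subunits with Nduf names had a log2 change above 0 as deposited, and 6 after each of the scalings, with Ndufs7 below 0. ND5, a core subunit encoded by mitochondria, lies outside the Nduf rule. Its log2 change was -0.19 as deposited and -0.46 after quantile normalization, with no test given here.

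Accessory subunits gave 8 rises and 0 falls among 25 genes tested (32.0%), and 17 were higher and 0 lower at an unadjusted p under 0.05. Of all genes tested, 5.53% were called higher and 1.99% lower, and without adjustment 11.5% and 5.53%. Among all genes with a mean signal over 10, 31.8% were called higher, near the accessory share, and 47.3% were higher without adjustment. Ndufs4, which holds the NADH-oxidising tip in place and whose loss in mice causes a fatal brain disease, had 4.3, 3.9 and 5.5 in controls and 11.8, 9.9 and 8.9 in induced arrays. The groups lay well apart, at 2.23-fold, with a log2 change of 0.35 ± 0.06 SE (limma, adjusted p = 0.0061). Of the 11 genes called, Ndufs4 alone stayed called without any 1 array (adjusted p = 0.0135 to 0.0391), and it was called after each of the scalings and without a filter on dim probe sets. It lost the call at a pseudocount of 1, with the authors' p-values and when its other probe sets, read near background, were averaged in.

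Ndufa6, of the LYR family that docks on the acyl carrier protein, had 4.4, 2.5 and 6.8 in controls and 9.7, 10.7 and 13 in induced arrays (2.44-fold, log2 change 0.40 ± 0.08 SE, limma, adjusted p = 0.0146). Ndufab1 is that carrier protein, which also serves mitochondrial fatty acid synthesis. It had 5.0, 5.3 and 7.8 in controls and 15.4, 9.5 and 23.8 in induced arrays, with 0.53 ± 0.14 SE the largest log2 change among the 38 genes and an adjusted p of 0.0476, the nearest under the threshold. The induced arrays of Ndufab1 spread more widely than those of Ndufa6, and the call was lost without any 1 array other than induced 2 (up to 0.221).

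Ndufa13, also known as GRIM-19, had 26.1, 29.8 and 35.1 in controls and 55.9, 37.9 and 48.2 in induced arrays (1.56-fold, limma, adjusted p = 0.0330). Its probe set is of a type that can read more than 1 transcript of like sequence. Ndufb2, Ndufb3, Ndufb5 and Ndufb6 belong to the arm that lies in the membrane. Ndufb3 had 10.7, 10.0 and 15.8 in controls and 27.2, 19.2 and 21.4 in induced arrays (adjusted p = 0.0177). Ndufb5 had 13.1, 12.2 and 15.6 against 25.4, 19.0 and 21.0 (adjusted p = 0.0174). In each of these genes the lowest induced array was above the highest control.

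Ndufb6 had 5.0, 6.7 and 7.0 in controls and 18.2, 14.7 and 8.8 in induced arrays (adjusted p = 0.0416), and Ndufb2 had 3.4, 5.1 and 4.4 against 10.7, 10.1 and 6.9 (adjusted p = 0.0220). In both, induced 3 lay closer to the controls than the other two. By ratio of means these 4 genes rose 1.60-fold (Ndufb5) to 2.23-fold (Ndufb6).

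Most accessory calls were lost when any 1 of several arrays was left out. A fit with 1 array fewer also called fewer probe sets higher in all, 728 to 1297 against 1320. Ndufa6 lost its call without control 1, control 2 or induced 3 (adjusted p up to 0.0666). Ndufa13, Ndufb3 and Ndufb5 lost theirs without control 1, control 2, induced 1 or induced 3 (up to 0.164, 0.116 and 0.0987). Ndufb2 and Ndufb6 lost theirs without any 1 array other than induced 3 (up to 0.0834 and 0.161). Over all 38 genes 1 was called without control 2, 3 without control 1, 4 without induced 1, 6 without control 3, 7 without induced 3 and 9 without induced 2.

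**Figure D2:**
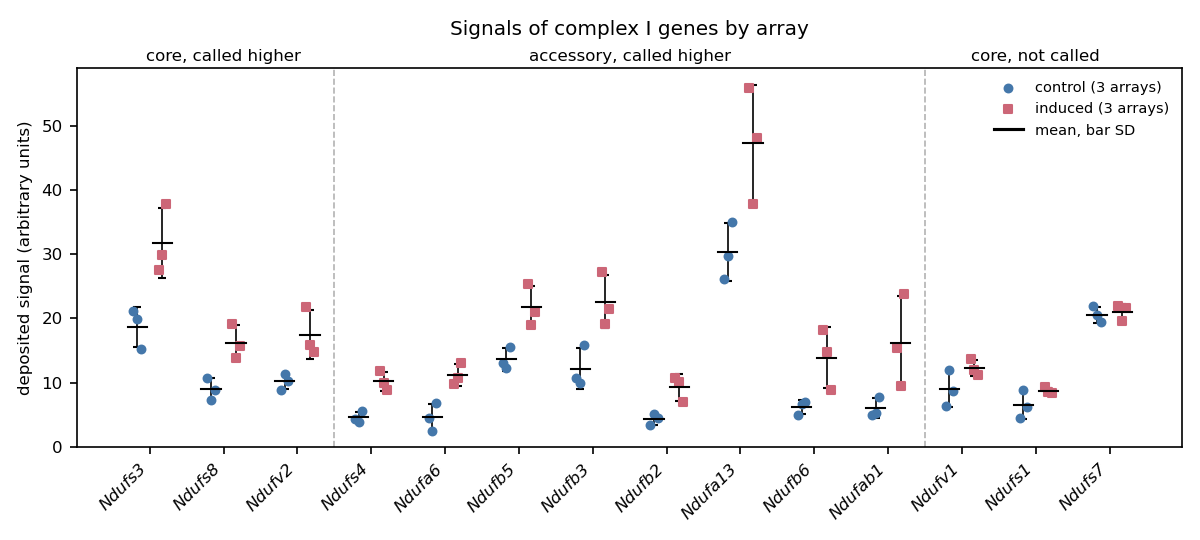
Deposited signal (vertical axis, arbitrary units, linear from 0) of each array for the 3 core and 8 accessory subunits called higher and 3 core subunits not called, with circles for controls, squares for induced arrays, a line at the mean and a bar of 1 SD (n = 3). In each of the 11 called genes all 3 induced arrays lie above all 3 controls, by a wide margin in Ndufs4 and a narrow one in Ndufa13, while Ndufs7 is level at 20.6 and 21.0.

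The 17 accessory subunits that were tested and not called ran from a log2 change of -0.11 for Ndufb7 to 0.44 for Ndufa3. Nearest to the threshold was Ndufv3, with 22.0, 24.7 and 25.0 in controls and 32.5, 28.6 and 29.4 in induced arrays (1.26-fold, limma, adjusted p = 0.0529). Ndufa3 had a larger change that rested on induced 1, with 29.3, 25.9 and 29.7 against 69.5, 32.1 and 36.7 (adjusted p = 0.234). The smallest changes were those of Ndufb4, Ndufa5 and Ndufa1. Ndufb4 was at background by its single-symbol probe set, Ndufa5 had 20.9 ± 6.53 and 20.9 ± 4.43, and Ndufa1 had 6.47 ± 1.70 and 7.20 ± 0.35. Ndufa2, with 21.7, 21.7 and 21.8 in controls and 29.6, 21.3 and 21.7 in induced arrays, differed in induced 1 only.

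Ndufb7 and Ndufb9 of the membrane arm were the accessory subunits of over background signal with a log2 change below 0. The brighter Ndufb7 probe set gave 66.5, 54.7 and 60.7 in controls and 73.7, 46.5 and 47.2 in induced arrays, and the dimmer one 18.9, 30.3 and 25.9 against 19.7, 17.5 and 14.2. The groups overlapped in both, and neither was called as deposited (limma, adjusted p = 0.811 and 0.168 over all probe sets). After quantile normalization the dimmer probe set was called lower, with a log2 change of -0.48 (adjusted p = 0.00875), as it was with arrays scaled to 1 median or to 1 trimmed mean. The authors' deposited table gave control over induced ratios of 1.33 and 1.27 for these probe sets, with unadjusted p-values of 0.00594 and 0.0135. Ndufb9 had 11.3, 10.0 and 19.0 against 17.7, 8.2 and 9.8 by its brightest probe set (adjusted p = 0.860) and 5.3, 4.8 and 7.2 against 8.8, 8.1 and 10.5 by the next, so its probe sets differed in direction.

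**Figure D3:**
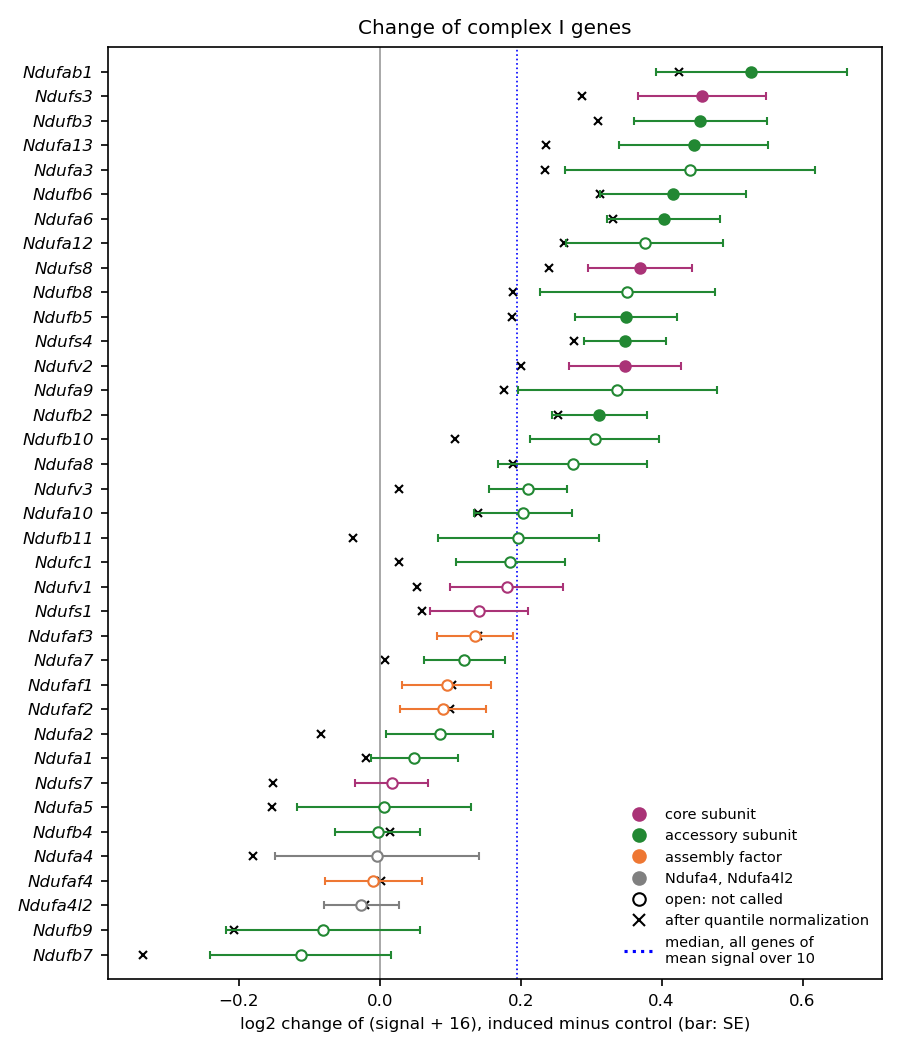
Log2 change of (signal + 16), induced minus control (horizontal axis, bar of 1 SE), of 37 complex I genes tested, coloured by class and filled where called higher, with crosses for the change after quantile normalization and a dotted line at 0.20, the median of all genes with a mean signal over 10. The 11 called genes lie between 0.31 and 0.53, and the crosses lie further to the left of their points in bright genes than in dim ones.

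The 4 assembly factors were read near background, and none was called (0 higher and 0 lower). At an unadjusted p under 0.05, 1 was higher and 0 lower, against 11.5% and 5.53% of all genes tested. Ndufaf3, which works with Ndufaf4 on the arm that binds ubiquinone, had 0.8, 2.6 and 2.0 in controls and 3.8, 3.8 and 3.0 in induced arrays (limma, adjusted p = 0.231), with no overlap. Ndufaf1, which acts on the membrane arm, had 0.3, 0.5 and 1.4 against 2.1, 3.1 and 0.5 (adjusted p = 0.540). Ndufaf2, a paralogue of the subunit Ndufa12 that acts late in assembly, had 1.3, 2.7 and 1.9 against 1.9, 4.4 and 3.1 (adjusted p = 0.554). The probe sets of Ndufaf4 disagreed. The brighter one gave 2.0, 1.7 and 0.9 in controls and 0.1, 3.2 and 1.1 in induced arrays (adjusted p = 0.975). The other gave 0.4, 0.3 and 0.0 against 2.0, 2.8 and 2.0, at least 1.13-fold higher against the background signal (adjusted p = 0.0793 among probe sets). These probe sets were too near background for an absence of change to be read from them. The 5 complex I genes that the array lists under older symbols, Ndufb1 and Ndufaf5 to Ndufaf8, had mean signals of at most 3.17 and none was called.

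Ndufa4 is now known as a subunit of complex IV and Ndufa4l2 is its paralogue. Ndufa4 had 14.6, 22.6 and 23.5 in controls and 24.8, 12.3 and 24.1 in induced arrays, overlapping throughout (limma, adjusted p = 0.996). Ndufa4l2 was at background on every array. Without the pair, 11 of 36 complex I genes were called higher (30.6%) and the median log2 change was 0.24.

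Probe sets of the same gene did not always move together. Counted singly, 16 of 73 Nduf probe sets tested were called higher and 0 lower (adjusted over 31523 probe sets, of which 4.19% were called higher and 1.35% lower), in 12 genes. All induced arrays were above all controls in 29 and below in 2 of the 73, against 10.9% and 7.12% of all probe sets. Brighter probe sets were called more often, with 937 higher and 237 lower of the 2868 with a mean signal over 10. For genes that bright, all induced arrays were above all controls in 41.3% and below in 13.8%. Of the 73, quantile normalization gave 7 higher and 2 lower calls (3.04% and 2.66% of all), scaling to 1 median 6 and 2 (2.79% and 2.71%), scaling to 1 trimmed mean 9 and 1 (3.3% and 1.89%), and a pseudocount of 1 gave 0 and 0 (0.324% and 0.295%). The lower calls were the dimmer Ndufb7 probe set and, other than with the trimmed mean, a probe set of Ndufv2. Among the 16 called higher as deposited were probe sets of Ndufa12, Ndufa7 and Ndufv1, whose brightest probe set was not called. Of 19 genes with several probe sets tested, 7 had log2 changes on both sides of 0. Ndufb6 and Ndufab1, called among genes, were just over the threshold among probe sets (adjusted p = 0.0522 and 0.0599).

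Ndufs8 was the most concordant of the 3 genes whose probe sets are plotted. It was read by 6 probe sets, of which 4 were called higher, at 1.75-fold to 2.33-fold, and in 5 all induced arrays were above all controls. Of the 4, 3 are of a type that can read other transcripts of like sequence. Ndufv2 was the least so. Its called probe set rose as given above, while another gave 9.7, 10.0 and 9.6 in controls and 8.6, 7.2 and 7.0 in induced arrays, all below the controls (limma, adjusted p = 0.246). That probe set was called lower after quantile normalization (log2 change -0.23, adjusted p = 0.0224) and scaled to 1 median. Which transcripts of Ndufv2 these probe sets read was not analysed here.

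**Figure D4:**
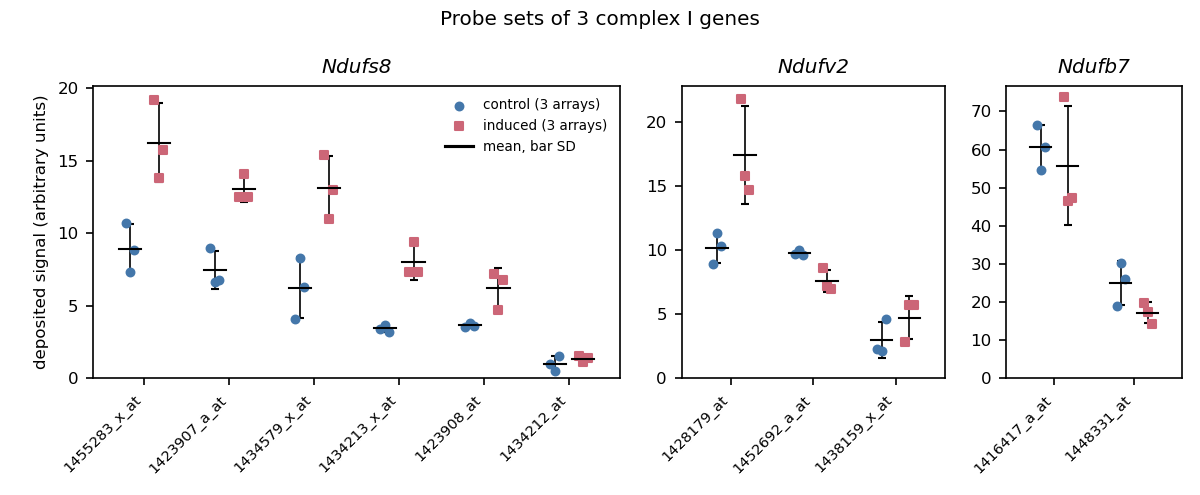
Deposited signal (vertical axes, arbitrary units, linear from 0, a scale of its own in each panel) of each array for the probe sets tested of Ndufs8, Ndufv2 and Ndufb7, with circles for controls, squares for induced arrays, a line at the mean and a bar of 1 SD (n = 3). In Ndufs8 5 of 6 probe sets have all induced arrays above all controls, in Ndufv2 the first rises from 10.2 to 17.4 while the second goes from 9.77 to 7.60, and in Ndufb7 the groups overlap.

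The sum over the brightest probe sets of the 39 genes was 509.7, 512.7 and 595.2 in controls and 874.6, 652.2 and 678.9 in induced arrays, a ratio of means of 1.36. Core subunits summed to 80.1 ± 4.75 and 119.1 ± 12.9 and accessory subunits to 432.2 ± 49.6 and 585.3 ± 107.2 (SD, n = 3 each). Induced 1 was highest in both classes, and it also had the highest summed signal of all arrays. As a share of the array's signal outside control probe sets, complex I took 0.262% ± 0.020 in controls (SD, n = 3) and 0.297% ± 0.015 in induced arrays (SD, n = 3), with the lowest induced array (0.285%) above the highest control (0.278%).

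The authors' p-values, adjusted here, called fewer genes. Of the 79 probe sets 61 had a higher value in induced arrays by the authors' deposited table, where 46.0% of all probe sets and 61.1% of those with a mean signal over 10 did. The authors' deposited list of 1144 probe sets that differ 2-fold or more held 6 of the 79, for Ndufa12, Ndufb2, Ndufab1 and Ndufs8, all higher in induced arrays, where 1.53% of all probe sets and 2.19% of those tested were at least 2-fold higher. For Ndufb2 the ratio of control over induced in the authors' deposited table was 0.373, and for Ndufab1 0.435. With the authors' p-values adjusted over the same genes, 1 of the 38 genes was called higher, Ndufb6, and 0 lower, near the 1.78% and 1.58% of all genes tested. By the authors' deposited table, 13 were higher and 1 lower at an unadjusted p under 0.05, against 10.2% and 7.70% of all genes.

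Few of the genes that work with complex I were called. Of 11 assembly factors with other names, 1 rose and 0 fell (limma, 9.09%, against 5.53% of all genes tested higher and 1.99% lower). This was Dmac1, known in human cells to help assemble the far end of the membrane arm, with 8.6, 6.5 and 6.2 in controls and 25.0, 15.1 and 15.9 in induced arrays (2.63-fold, adjusted p = 0.00735, and 0.00854 after quantile normalization). Of 12 regulators of mitochondrial biogenesis, among them Nrf1, Gabpa, Esrra, Tfam and Yy1, none was called (0 higher and 0 lower), and most were near background. At an unadjusted p under 0.05, 2 were higher and 0 lower, against 11.5% and 5.53% of all genes tested. Yy1, the brightest of the 12, had 36.4, 40.1 and 39.9 in controls and 60.5, 41.0 and 44.6 in induced arrays (adjusted p = 0.275). Most of the 10 other mitochondrial proteins often read as measures of mitochondrial content had a mean signal over 10. Of all genes tested 5.53% were called higher and 1.99% lower, and of those with a mean signal over 10, 31.8% and 9.93%. Near the share called higher among genes that bright, 3 of the 10 rose and 0 fell. They were the import receptor Tomm22, from 31.4 ± 5.79 to 50.7 ± 9.46 (adjusted p = 0.0288), the import channel Timm23, from 13.5 ± 1.95 to 31.9 ± 4.84 (adjusted p = 8.48e-04), and the prohibitin Phb2, from 11.6 ± 1.27 to 24.9 ± 7.93 (adjusted p = 0.0176). The call of Tomm22 was lost after quantile normalization (adjusted p = 0.0570).

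Beside the 11 of 38 complex I genes, 14 of 38 genes of the other respiratory complexes and ATP synthase were called higher (36.8%, median log2 change 0.30), 13 of 76 mitochondrial ribosomal protein genes (17.1%, 0.13) and 31 of 58 cytosolic ribosomal protein genes (53.4%, 0.59), with 0 called lower in each list. Shares over all genes tested were 5.53% higher and 1.99% lower, and 31.8% and 9.93% among genes with a mean signal over 10. After quantile normalization the counts of the lists were 4, 10, 13 and 19 higher, with 0, 0, 1 and 1 lower and medians of 0.12, 0.16, 0.11 and 0.14. The shares were then 4.0% higher and 4.0% lower over all genes tested, and 21.2% and 21.5% over those with a mean signal over 10. The lists were not matched for brightness. The lists were read on the same arrays, and the differences between them were not tested.

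**Figure D5:**
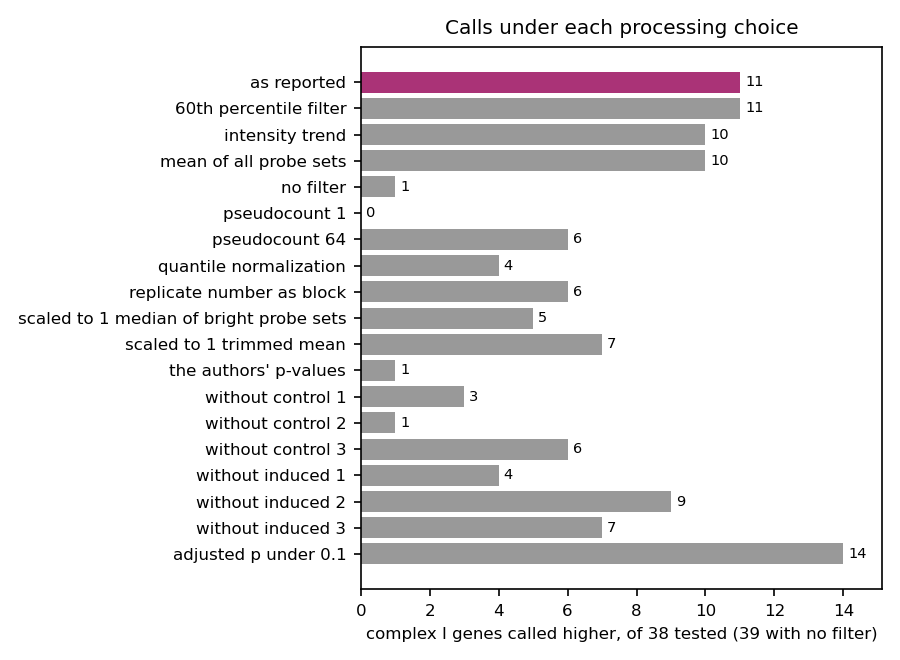
Number of complex I genes called higher (horizontal axis, of 38 tested, 39 with no filter) at an adjusted p under 0.05 as reported (top bar) and under each alternative, the last bar being an adjusted p under 0.1. The count runs from 0 at a pseudocount of 1 and 1 without control 2 to 14 at the looser threshold.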

How the data were processed

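The arrays (Affymetrix, mouse) are 6, with 3 in each group by the labels. The authors' deposited value table holds linear signal intensities. Per the submitters' processing notes they come from MAS5, and their scaling is not given in the sources used here. The authors' deposited ANOVA table gives the gene symbols and, per the file headers, an unadjusted p-value and a control over induced ratio for each probe set.

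Tests ran on log2(signal + 16), a scale on which the folds of dim genes come out smaller, while ratios are of mean deposited signals. Control probe sets (64) and those whose mean log2 value was at or under the 30th percentile were left out. limma 3.58.1 in R 4.3.3 (lmFit, eBayes) estimated the difference of induced from control arrays, and p-values were adjusted (Benjamini-Hochberg) over all probe sets, or over all genes by their brightest single-symbol probe set. Each array is a pool of mice, so p-values measure the spread between pools, and the number of arrays limits the precision. Of 20678 symbols, 16590 were current and 1723 were updated in a RefSeq table (GRCm38.p6).

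The members and lists were chosen with earlier results of these data known. Named with values were called genes, core subunits and assembly factors, the 3 accessory subunits of smallest change and those nearest the threshold, and promoters of called genes of smallest p. Ndufa3, Ndufa2, Ndufb9, Ndufb7, Yy1 and single probe sets of other genes were picked with their values in view. Other settings tried were quantile normalization, scaling to a 2% trimmed mean or to the median of bright probe sets, pseudocounts of 1 and 64, no filter or the 60th percentile, an intensity trend, the replicate number as a block, an adjusted p under 0.1, p-values from the authors' deposited table, a gene's mean over its probe sets, and leaving out each array. The values of 1 member are not reported here, and it stays in the counts, medians and sums. The fit was tested on simulated data. Figures were drawn with matplotlib 3.10.9. Same-numbered arrays of the groups did not deviate together, so the numbers were not taken to pair them.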

Additional observations from a re-analysis of the deposited data

How the results depend on the processing

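With each of 19 genes followed (the 11 called, the other core subunits and the assembly factors), 0 of 198 log2 changes of called genes under an alternative changed sign. Most of these could not change sign. A filter, trend, block or looser threshold leaves the log2 change as it is. In each called gene all induced arrays lay above all controls, so another pseudocount or 1 array fewer keeps its sign. Ndufs7 and Ndufaf4 changed sign without a call, in 11 values. Of all 342 values 237 kept their side of the threshold, a count that includes genes that were not called and stayed so. Of the 198 values of called genes, 104 lost the call. The calls themselves did not hold well, and apart from the fewer arrays or more tests that an alternative brings by construction, the cause was not tested. The reported counts are 11 genes (3 core, 8 accessory) and 16 probe sets higher, 0 lower, among 1320 higher and 427 lower probe sets in all. With no filter 1 gene was called (0 core, 1 accessory) and 4 probe sets, of 595 higher and 246 lower in all. A pseudocount of 1 gave 0 genes and 0 probe sets (0 core, 0 accessory), of 102 and 93 in all, and a median log2 change of 0.59 against 0.21. A pseudocount of 64 gave 6 genes (4 accessory) and 5 probe sets, with 801 higher in all and a median of 0.095. Quantile normalization gave 4 genes (0 core, 4 accessory), 7 probe sets higher and 2 lower, with 838 lower in all. Scaling to 1 median gave 5 genes (0 core, 5 accessory), 6 probe sets higher and 2 lower, with 854 lower in all, and scaling to 1 trimmed mean 7 genes (1 core), 9 probe sets higher and 1 lower. The authors' p-values gave 1 gene (0 core, 1 accessory) and 2 probe sets, of 339 higher and 274 lower in all, with a median of 0.39. The replicate number as a replicate block gave 6 genes (1 core, 5 accessory). Correlations of the deviations of same-numbered arrays were -0.07, 0.04 and -0.03, and control 3 went best with induced 1 (0.15), so the arrays share only a number.

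Leaving out 1 array gave 1 to 9 genes (0 to 3 core, 1 to 6 accessory), 5 to 14 probe sets higher and 0 to 1 lower, of 728 to 1297 higher and 262 to 429 lower in all, and a median of 0.16 to 0.24. The fewest genes were called without control 2. The 5′ end of beta-actin was read at 13% ± 2.40 of its 3′ signal in control and 19.9% ± 2.48 in induced arrays (SD, n = 3). Signals near background limit what can be said of the assembly factors.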

Other observations

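Probe sets that read an Nduf gene together with other loci also gave calls. Of the 11 probe sets that list an Nduf symbol with other genes, 10 were tested, and 3 were called higher and 0 lower (limma, adjusted over all probe sets), with log2 changes of 0.03 to 0.60 over the 10. Over all probe sets tested, 4.19% were called higher and 1.35% lower. A probe set shared by Ndufc2 and unnamed loci had signals of 7.9, 9.9 and 11.6 in controls and 28.7, 18.5 and 22.5 in induced arrays (adjusted p = 0.00513). One shared by Ndufb4 and predicted genes had 11.9, 14.9 and 15 against 26.9, 20.0 and 21.3 (adjusted p = 0.0203), and one shared by Ndufs5 and an unnamed locus had 2.3, 2.5 and 3.4 against 7.0, 5.7 and 9.3 (adjusted p = 0.020). In each of these all induced arrays were above all controls, and the genes that share a probe set cannot be told apart. Other shared probe sets of Ndufc2, Ndufb4 and Ndufs5 were not called. The adjusted p was 0.506 and 0.0927 for Ndufc2, 0.913 for Ndufb4 and 0.0938 for Ndufs5 (limma). Ndufa11, shared with a predicted gene, had 9.8, 10.0 and 8.9 against 10.8, 10.3 and 9.3 (adjusted p = 0.876). These probe sets were singled out after their values were seen.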
